A study of Mus musculus with 28 samples.

Results

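The first day of OKS induction was followed in mouse embryonic fibroblasts (MEFs) that had been cultured with a p38 inhibitor before the factors were delivered. These are 4 of the 28 RNA-seq libraries of the series, chosen by their labels: 2 libraries of MEFs treated with SB203580, a small-molecule inhibitor of p38 MAP kinase (p38i), and 2 libraries of p38i-pretreated MEFs on day 1 of induction (pre-p38i). OKS stands for Oct4, Klf4 and Sox2, delivered by retrovirus, and induction took place in the chemically defined medium iCD1. The remaining libraries are untreated MEFs and induced cells of days 1, 3, 5 and 7, either control, given p38i while induced, or pretreated (days 3, 5 and 7), and each of the 14 groups has 2 libraries. All of these groups are labelled wild type, and the study's methods describe primary MEFs from mid-gestation embryos carrying a GFP reporter of Oct4. Between the p38i-treated MEFs and day 1 of pre-p38i the cells received the viruses and the 3 transgenes, entered the induction medium, were no longer given the inhibitor and spent more time in culture, and these steps cannot be told apart in the comparison. The untreated MEFs and the control on day 1 passed through the same steps apart from the inhibitor, and are used here to ask where the first day differed after pretreatment. The study describes a DMSO control for the inhibitor, and the sample titles of these groups say only ctr. Untreated here therefore means without the inhibitor. The labels do not say that replicates came from separate embryos or cultures, so the p-values measure only the spread between these libraries, which may be technical.

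Fibroblasts are mesenchymal cells held spread by contractile actin fibres and a matrix of their own making. Oct4, Sox2 and Klf4 are transcription factors of pluripotent cells that, when forced into fibroblasts, displace the fibroblast program and allow an epithelial program and later the pluripotency network to come on. The loss of mesenchymal genes and the gain of epithelial genes early in this course is known as the mesenchymal-epithelial transition. p38 is a stress-activated kinase that acts on many transcription factors and on the stability of messenger RNA.

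The deposited values are whole numbers that summed to between 991880 and 992537 in the 4 libraries, which is what TPM, the length-corrected share of transcripts in a library, give once each value is cut to a whole number. The depth behind a value is unknown, so no counting interval can be given. Genes with a value of at least 1 numbered 12454 and 12470 in the p38i-treated MEFs and 13291 and 13338 in pre-p38i on day 1. Mitochondrial genes held 2.4% and 2.42% of the total in the former and 3.24% and 3.92% in the latter. Of 8 fibroblast marker genes, 7 were above 0 in both p38i-treated MEF libraries, and their summed value went from 4200 and 4201 in those libraries to 2599 and 2705 on day 1. The members did not move together. In the limma test described below, 5 of the 8 were lower on day 1 and 3 were higher. Over all tested genes these shares were 20.7% and 35.3%. In bulk libraries, fewer cells of a type and less RNA per cell cannot be told apart.

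Most of the tested genes changed on the first day. limma, fitted to log2(value + 1) over all 28 libraries, called 7407 of the 13230 genes tested at a Benjamini-Hochberg adjusted p-value under 0.05, which is 56% of them. Of these, 4672 genes were higher on day 1 (35.3% of those tested) and 2735 were lower (20.7%). The counts given below for gene lists stand against these shares. At least a 2-fold change was reached by 2067 genes that rose (15.6%) and 765 that fell (5.78%). The median gene moved by 0.09 on the log2 scale. When the libraries were forced to one common distribution by quantile normalization the median became -0.08, and the split turned to 3411 genes higher and 3835 lower, so changes of the size of this shift have no firm direction. Among the called genes, 598 were listed at 0 in both libraries of p38i-treated MEFs, and 16.1% had a mean value under 5 over the 4 libraries. Acta1, Myl9, Cnn2, Vcl, Hmgcs1, Idi1, Col3a1 and Mt1 are described below after their values were seen.

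The genes that rose furthest included the delivered factors. Pou5f1, which encodes Oct4, was listed at 0 and 0 in the p38i-treated MEFs and at 3768 and 3846 on day 1, and Sox2 went from 0 and 0 to 1256 and 1327. Klf4, which MEFs also express, went from 20 and 20 to 870 and 847 (log2 change 5.35, standard error 0.08, limma adjusted p = 9.29e-21). The 3 values include the retroviral transgenes, since the table holds 1 value per gene. All 3 genes were high in both day 1 libraries and low or at 0 in both libraries of p38i-treated MEFs.

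After Pou5f1 and Sox2, the next genes belong to tissues far from a fibroblast. Aldh3a1 (ENSMUSG00000019102, chromosome 11 of GRCm38, 61207537 to 61218421), an aldehyde dehydrogenase best known from the cornea, went from 0 and 0 to 1046 and 1096 (limma adjusted p = 1.24e-28). Hbb-y (ENSMUSG00000052187, chromosome 7, 103851749 to 103853216), the embryonic beta-like globin of primitive red cells, went from 0 and 0 to 822 and 807 (adjusted p = 2.01e-25). Both genes were thus listed at 0 in both starting libraries and high in both day 1 libraries. The other erythroid markers looked up, among them Hba-a1, Hba-a2, Hbb-bs, Hbb-bt and Alas2, stayed at 0 in all 4 libraries.

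The following stretch of the Hbb-y promoter is shown because it carries, in capitals, a CCAAT box and a CACCC sequence close to the start of the gene, both familiar elements of globin promoters. It lies at chr7:103853261-103853343 on the minus strand (RefSeq, GRCm38.p6) and is written 5′ to 3′ in the direction of transcription. CCAAT, read on either strand, is present in 37.4% and CACCC in 57.5% of all 32851 promoter windows of 300 bases.
Hbb-y: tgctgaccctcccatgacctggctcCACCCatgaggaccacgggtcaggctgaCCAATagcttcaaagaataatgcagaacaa

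Fetub, a secreted cystatin-family protein of liver, went from 0 and 0 to 223 and 216, and Avil, an actin-severing protein of epithelia and sensory neurons, from 0 and 0 to 188 and 197. Itgb4, the integrin of hemidesmosomes, reached 163 and 173, Crym, a thyroid hormone binding protein, 168 and 152, and the neurofilament gene Nefl 171 and 170, from no more than 1 in any library of p38i-treated MEFs. None of these 5 overlapped between the groups, which the rule that chose them required. Over all tested genes, 41.7% were higher on day 1 without overlap. Igfbp3, a carrier of insulin-like growth factors and the last of the 10 genes that rose most, went from 10 and 8 to 1203 and 1186, a log2 change of 6.91 (standard error 0.06, limma adjusted p = 1.09e-24).

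Of the 10 genes that fell most, 9 are described here, and they include genes of matrix, cell junctions and actin. Wisp2, a secreted CCN family protein, went from 67 and 61 to 0 and 0, and Lmod1, which nucleates actin in smooth muscle, from 37 and 39 to 0 and 0. Ankrd1, a target of the mechanosensitive co-activator YAP, fell from 156 and 159 to 4 and 4, a log2 change of -4.99 (standard error 0.19, limma adjusted p = 1.354e-14). The connexin gene Gjb2, the transcription factor gene Atoh8 and the matrix gene Smoc2 were also listed at 0 on day 1, from values of 28 to 35 before. Ier5l, Fgd3 and Lrrc17 completed the list, with day 1 values of at most 2. In each of the 9, both day 1 libraries lay below both libraries of p38i-treated MEFs, which the rule that chose them required. Over all tested genes, 28.2% were lower on day 1 without overlap.

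**Figure D1:**
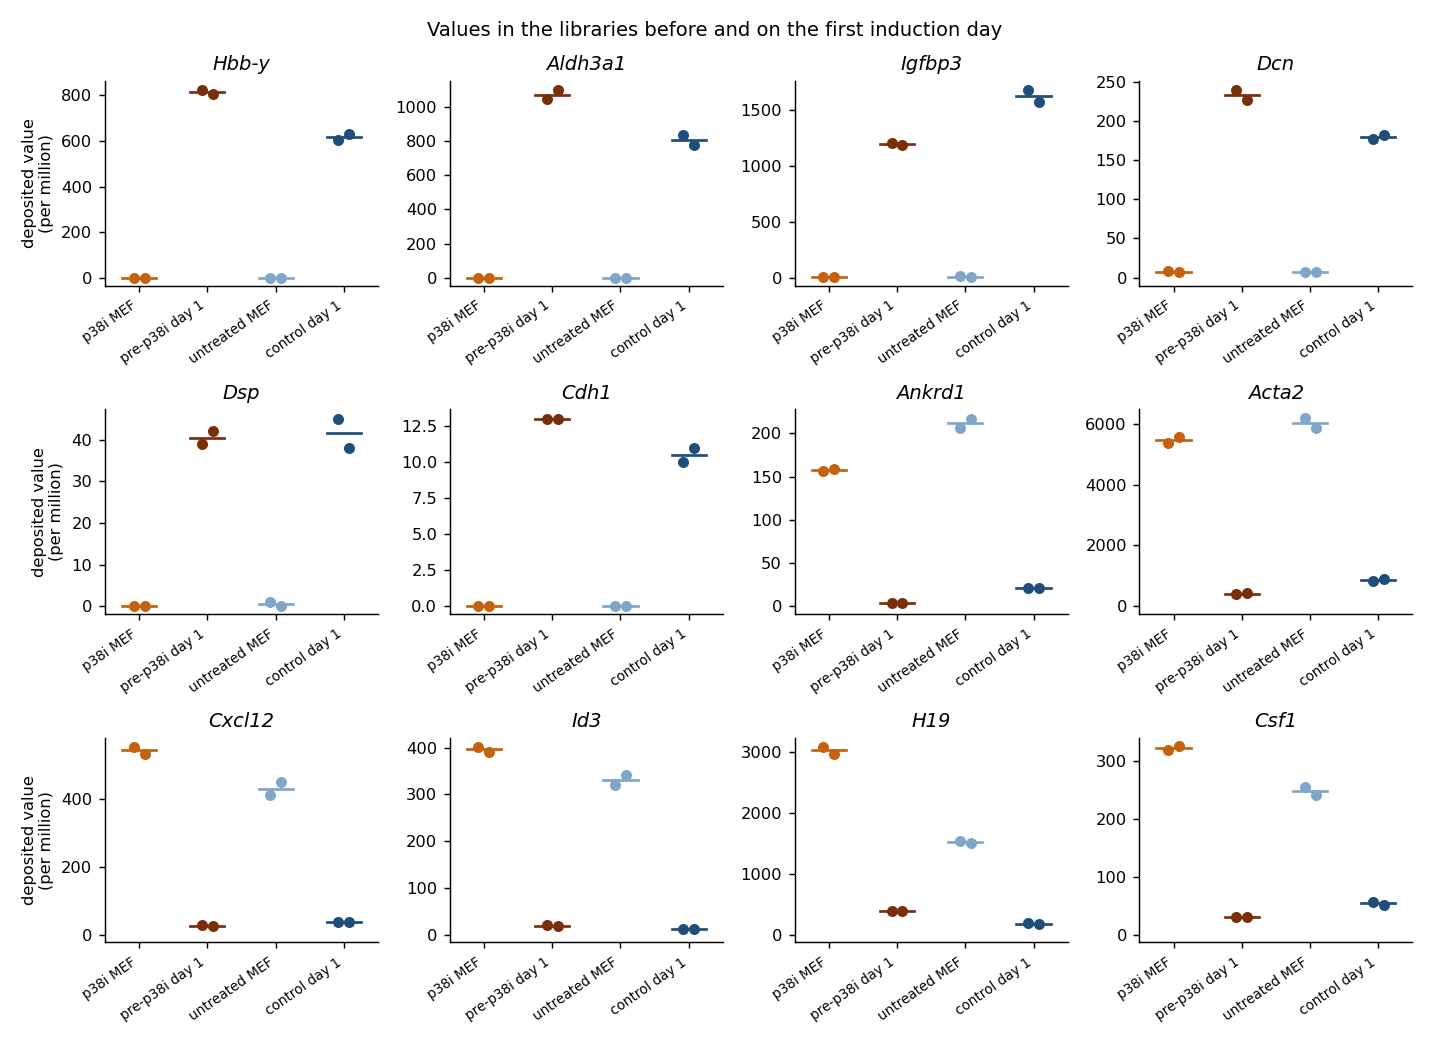
Deposited values (TPM scale) of 12 genes in each library of p38i-treated MEFs, pre-p38i on day 1, untreated MEFs and control on day 1; points are libraries, lines are means of 2, and each vertical axis is linear and includes 0. Hbb-y, Aldh3a1, Igfbp3, Dcn, Dsp and Cdh1 are higher on day 1 from both starting cultures, and Ankrd1, Acta2, Cxcl12, Id3, H19 and Csf1 are lower.

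The endogenous pluripotency genes were largely silent at this stage. Nanog, the core pluripotency factor that the vectors do not carry, was listed at 0 in all 4 libraries, as was Dppa3, which was too low to be tested. A pluripotency list was used that leaves out the 3 OKS factors, and 12 of its members were too low to be tested. Of the 19 tested, 7 rose and 3 fell, near the shares over all genes (35.3% and 20.7%). The median log2 change was 0 (-0.32 under quantile normalization). Of the 19, 13 were listed at 0 in both libraries of p38i-treated MEFs and could not be seen to fall. L1td1, an RNA-binding protein of embryonic stem cells, went from 0 and 0 to 38 and 37, and Podxl, a sialomucin of the stem cell surface, from 0 and 0 to 28 and 30. The tetraspanin gene Cd9 was already expressed in MEFs and rose from 163 and 172 to 801 and 787 (log2 change 2.24, standard error 0.05, limma adjusted p = 1.44e-18). Klf2, a Krüppel-like factor of the naive state that fibroblasts also use, fell from 21 and 20 to 2 and 2.

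Epithelial genes had begun to appear, at low levels. Of 32 tested members of an epithelial list, 17 rose and 3 fell (35.3% and 20.7% over all genes), with a median log2 change of 0.90 against 0.09 for all genes. Under quantile normalization 13 rose and 3 fell, with a median of 0.42. Of the 38 genes listed 6 were too low to be tested, and 23 of the 32 tested were listed at 0 in both libraries of p38i-treated MEFs and could not be seen to fall. Cdh1 (chromosome 8, 106603351 to 106670246), which encodes E-cadherin, went from 0 and 0 to 13 and 13. The desmosome genes Dsp and Dsc2 reached 39 and 42 and 22 and 22, each from 0 and 0, and Spint2, a protease inhibitor of epithelial surfaces, rose from 1 and 0 to 35 and 35. The simple keratin gene Krt8 stood at only 3 and 3, and the tight junction gene Cldn3 at 1 and 1, which limma did not call (adjusted p = 0.051) although it did without other groups in the fit (adjusted p = 2.845e-05). On day 1 the desmosome genes thus had higher values than Cldn3 and Krt8.

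Genes of stratified epidermis were also found on day 1. Of 27 listed, 12 were too low to be tested, and 9 of the 15 tested were listed at 0 in both libraries of p38i-treated MEFs, so that no fall could be measured in them. Krt13 went from 0 and 1 to 35 and 35, the kallikrein gene Klk10 from 4 and 3 to 70 and 70, and Krt14, the keratin of basal keratinocytes, from 0 and 0 to 13 and 11. Krt6a rose from 0 and 0 to 11 and 13, but it shares a near-identical stretch with Krt6b, so its reads may be split between both.

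The contractile apparatus showed the broadest fall. Of 15 tested contractile protein genes, 14 fell and none rose, and of 8 YAP target genes, 7 fell and none rose. Over both sets together the median log2 change was -2.33. From untreated MEFs 22 of the same 23 genes fell. Acta2 (chromosome 19, 34241090 to 34255336), which encodes smooth muscle actin, stood at 5355 and 5572 in p38i-treated MEFs and at 405 and 421 on day 1 (log2 change -3.72, standard error 0.11, limma adjusted p = 1.55e-16). Cnn1, a calponin that stabilises actin fibres, fell from 140 and 162 to 8 and 7. Actb, the general cytoskeletal actin that is often used as a reference gene, fell as well, from 3432 and 3414 to 1105 and 1152.

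Many contractile genes are regulated through the CArG box, the binding sequence of serum response factor, and promoter stretches of 3 of them are shown with that box in capitals. The genes shown were chosen after their values were seen. Promoter windows were found for 12 of the 15 contractile genes and a CArG box in 4 of them, which is 33.3%. The gene list was drawn up as contractile and serum response factor genes, so the share with the box is not independent of that choice. Of all 32851 windows, 1.63% held the box, counted on both strands over 250 bases before and 50 after the start. Only exact matches to CCWWWWWWGG, where W is A or T, were counted. The first share counts genes with the box in any of their windows and the second counts single windows. A gene with several windows has more chances, so both shares are unlike measures. All coordinates are RefSeq on GRCm38.p6, plus strand, written 5′ to 3′. Myl9, the regulatory light chain of myosin, lies at chr2:156775258-156775357, Cnn2, another calponin, at chr10:79988499-79988598, and Vcl, which encodes the focal adhesion protein vinculin, at chr14:20929148-20929225.
Myl9: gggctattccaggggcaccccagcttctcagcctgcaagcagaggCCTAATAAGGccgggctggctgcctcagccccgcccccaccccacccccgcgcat
Cnn2: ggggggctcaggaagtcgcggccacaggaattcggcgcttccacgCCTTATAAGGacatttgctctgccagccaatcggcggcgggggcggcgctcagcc
Vcl: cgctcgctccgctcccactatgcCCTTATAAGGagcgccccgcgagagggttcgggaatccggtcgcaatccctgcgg
Myl9 fell from 531 and 556 to 41 and 42, Cnn2 from 758 and 770 to 96 and 101, and Vcl from 382 and 381 to 109 and 115. The fourth gene with the box was the skeletal actin gene Acta1, which fell from 43 and 46 to 3 and 3. No exact match was found in these windows of Acta2, Cnn1 or Lmod1, which fell at least as far. Looser forms of the box and sites outside the windows were not looked for.

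Most of the tested mesenchymal genes fell. Of 24, 19 fell, 1 rose and 4 were not called, with a median log2 change of -0.86. Snai1, a repressor of E-cadherin, went from 85 and 71 to 6 and 7 (log2 change -3.39, standard error 0.21, limma adjusted p = 4.26e-11). The homeobox gene Prrx2 fell from 139 and 132 to 6 and 8, Foxc2 from 35 and 40 to 5 and 5, and the receptor gene Pdgfrb from 64 and 66 to 10 and 9. Zeb1, another E-cadherin repressor, fell less, from 24 and 24 to 17 and 18. Twist1, usually counted with the same factors, was the member that rose, from 91 and 96 to 191 and 199 (log2 change 1.05, standard error 0.06, limma adjusted p = 1.6e-11).

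Matrix genes fell in the main but split. Of 32 tested, 21 fell and 7 rose, with a median log2 change of -1.07. Aspn and Ogn, both small leucine-rich proteoglycans, went from 17 and 14 to 0 and 0 and from 86 and 79 to 4 and 5. In the same family, Dcn, which encodes decorin, rose from 8 and 7 to 239 and 227 (log2 change 4.78, standard error 0.08, limma adjusted p = 2.225e-20), and Lum, lumican, from 1 and 0 to 24 and 24. Proteoglycans of a single family therefore changed in opposite directions.

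Most tested targets of TGF-beta and BMP signalling fell while the antagonists of these ligands were mixed. Of 11 tested target genes, 9 fell and none rose, with a median log2 change of -1.58, and of 6 antagonist genes 4 rose and 2 fell. Id3, a BMP target that blocks differentiation factors, went from 401 and 391 to 20 and 18 (log2 change -4.31, standard error 0.10, limma adjusted p = 7.64e-18). Smad6, the feedback inhibitor of BMP signalling, fell from 37 and 33 to 4 and 2.

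Secreted signals changed in both directions. Cxcl12, the chemokine of stromal niches, went from 555 and 535 to 27 and 25 (log2 change -4.34, standard error 0.24, limma adjusted p = 5.52e-12), and Csf1, the growth factor of macrophages, from 319 and 325 to 31 and 31. Ccl7, a monocyte chemokine, rose from 20 and 18 to 185 and 183 (log2 change 3.21, standard error 0.07, adjusted p = 1.61e-18), and the alarmin gene Il33 from 0 and 0 to 11 and 9. Over the 21 tested inflammatory genes, 7 rose and 7 fell. Among matrix proteases and their inhibitors, 7 of 19 rose and 9 fell. Over all genes 35.3% rose and 20.7% fell, so the share of risers in both lists was near that of all genes. In p38i-treated MEFs, 6 of the inflammatory genes and 4 of the protease list were at 0 in both libraries. Mmp3 and Mmp10, the stromelysins, went from 0 and 0 to 38 and 39 and to 14 and 16, and Serpine2 rose from 72 and 71 to 364 and 346.

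Sterol synthesis rose as a whole pathway. All 19 tested enzymes of the route from acetyl-CoA to cholesterol were higher on day 1, and with uptake and regulatory genes 27 of 29 rose and none fell in the limma test, with a median log2 change of 1.14. Under quantile normalization 27 rose and 1 fell. Nsdhl went from 38 and 31 to 119 and 124 and Mvd from 28 and 25 to 90 and 81, and neither overlapped with its starting values. Abca1, which exports cholesterol from cells, rose further, from 4 and 3 to 118 and 121 (log2 change 4.75, standard error 0.08, limma adjusted p = 2.51e-20). Most of the enzymes are known targets of the sterol-sensing factor SREBP2, whereas Abca1 is turned on by the oxysterol receptor LXR. Fatty acid synthesis genes followed, 11 of 13 rising and none falling (median log2 change 0.51), among them the desaturase gene Scd1, from 68 and 62 to 375 and 378, and Acss2, which makes acetyl-CoA from acetate, from 4 and 5 to 44 and 51.

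Promoters of sterol genes often pair the SREBP site with a CCAAT box, bound by NF-Y, and such boxes are shown in capitals for 3 genes of the pathway, chosen after their values were seen. Of the 19 enzymes, 14 had a promoter window and 13 of these held CCAAT on either strand (as ATTGG on the other strand), which is 92.9%. Of all windows, 37.4% held it. Here too the enzymes were counted by gene, over any of their windows, and the background by single window. Hmgcs1, the synthase at the start of the pathway, lies at chr13:119690101-119690335, the isomerase gene Idi1 at chr13:8885536-8885605 and Nsdhl at chrX:72918387-72918520 (RefSeq, GRCm38.p6, plus strand, 5′ to 3′, ending at or before the RefSeq start of transcription). The Idi1 stretch lies downstream of the gene start listed with the deposited values, 8885501.
Hmgcs1: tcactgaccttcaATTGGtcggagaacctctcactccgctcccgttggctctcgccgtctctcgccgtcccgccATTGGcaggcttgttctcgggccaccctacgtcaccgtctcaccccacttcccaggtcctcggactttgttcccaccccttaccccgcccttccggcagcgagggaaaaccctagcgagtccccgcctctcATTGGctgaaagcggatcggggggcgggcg
Idi1: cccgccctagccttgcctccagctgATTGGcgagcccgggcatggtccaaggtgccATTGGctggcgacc
Nsdhl: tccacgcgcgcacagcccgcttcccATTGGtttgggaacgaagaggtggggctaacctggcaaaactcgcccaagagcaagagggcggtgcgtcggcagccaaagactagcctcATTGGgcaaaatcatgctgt
Hmgcs1 rose from 96 and 93 to 154 and 165 and Idi1 from 71 and 68 to 162 and 158. A match of letters is a description of the sequence and not a measured binding site.

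Most tested genes of protein synthesis and folding fell. Of 23 tested genes of the integrated stress response, the ATF4 program that cells use when amino acids or folding capacity run short, 16 fell and 5 rose (median log2 change -0.65). Trib3 went from 24 and 19 to 1 and 0, Chac1 from 19 and 22 to 4 and 3 and Cebpb from 86 and 87 to 19 and 18, while Nupr1 rose from 33 and 36 to 136 and 119. Of 16 genes of the endoplasmic reticulum folding machinery, 11 fell and 3 rose, Calr from 1477 and 1493 to 675 and 692 and Hsp90b1 from 907 and 907 to 454 and 476. Of 18 genes of ribosome biogenesis, 11 fell and 1 rose, with small changes (median log2 change -0.32). Lysosomal genes went the other way: 22 of 24 rose and 1 fell, also by small amounts (median log2 change 0.49), with the sialidase gene Neu1 going from 19 and 21 to 54 and 52.

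Readouts of MAP kinase signalling fell in part. Of 19 AP-1 and immediate early genes, 12 fell and 2 rose, with a median log2 change of -0.95. Egr1 went from 169 and 178 to 44 and 46, the AP-1 subunit gene Fosl2 from 84 and 80 to 21 and 21 and Ier5 from 98 and 93 to 18 and 18. Feedback genes split by gene, Dusp14 rising from 35 and 36 to 320 and 326 (log2 change 3.15, standard error 0.06, limma adjusted p = 3.45e-19) and Dusp5 falling from 81 and 88 to 18 and 23. Among the 4 p38 genes, Mapk14, the major isoform, went from 62 and 65 to 51 and 55 (log2 change -0.26, adjusted p = 0.00575, lost without the second library of p38i-treated MEFs or the first of day 1, adjusted p = 0.05345 and 0.06927) and Mapk13 from 5 and 8 to 24 and 27 (log2 change 1.85, adjusted p = 1.23e-08). Mapk11 and Mapk12 stood at 7 or less in all 4 libraries and were not called. Over the 19 genes of the p38 pathway, 5 rose and 5 fell (35.3% and 20.7% over all genes), with a median log2 change of 0. Under quantile normalization 4 rose and 7 fell, with a median of -0.15.

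Most tested targets of p53 rose while Trp53 itself did not. Of 25 tested target genes, 19 rose and 5 fell, with a median log2 change of 0.57. Cdkn1a, which encodes the cell cycle inhibitor p21, went from 275 and 267 to 906 and 939 (log2 change 1.76, standard error 0.04, limma adjusted p = 1.77e-17), and Perp, a p53 target that is also a desmosome protein, from 14 and 17 to 252 and 240. Trp53 had values of 212 and 194 before and 167 and 183 on day 1 (log2 change -0.21, adjusted p = 0.00947), a call that was lost without either first replicate (adjusted p = 0.129 for each) and in a fit of only these groups (adjusted p = 0.1435).

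Most of the tested mitotic genes fell by small amounts. Of 34, 24 fell, 3 rose and 7 were not called, with a median log2 change of -0.34, and of 37 DNA replication genes 11 fell and 2 rose (median -0.15), or 19 and 1 under quantile normalization. Smc4, a condensin subunit, went from 107 and 93 to 54 and 51 and the cyclin gene Ccna2 from 131 and 126 to 79 and 77. In cytokinesis, 10 of 14 genes of the central spindle and furrow fell and none rose, for example Prc1 from 142 and 140 to 87 and 89, while 6 of 9 abscission genes rose. Of 23 genes of the G1 phase, 9 rose and 6 fell, near the shares over all genes (35.3% and 20.7%). Their median log2 change was 0.04 (8 and 7, with a median of -0.11, under quantile normalization). Ccnd1, cyclin D1, rose from 233 and 222 to 651 and 655, Cdk6 from 10 and 10 to 34 and 34 and the brake gene Rb1 from 9 and 9 to 37 and 39.

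More interferon genes rose than fell. Of 40 tested interferon genes 18 rose and 2 fell (35.3% and 20.7% over all genes), with a median log2 change of 0.36. Under quantile normalization 14 rose and 6 fell, with a median of -0.01. Of the 40, 20 were listed at 0 in both libraries of p38i-treated MEFs and could not be seen to fall. Xaf1 was the largest riser of the list, from 4 and 2 to 21 and 24. The class I genes H2-K1 and H2-D1 rose from 19 and 17 to 73 and 68 and from 32 and 33 to 106 and 113, and H2-D1 shares a near-identical stretch with H2-Q7.

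Among imprinted and positional genes of the embryo, more fell than rose. H19 (chromosome 7, 142575529 to 142578143), an imprinted noncoding RNA, went from 3077 and 2960 to 384 and 386 (log2 change -2.97, standard error 0.07, limma adjusted p = 6.71e-18). The imprinted cluster genes Dlk1 and Meg3 fell from 182 and 179 to 34 and 45 and from 84 and 80 to 15 and 8. Over 19 imprinted genes, 11 fell and 4 rose, and over 26 Hox genes, which hold positional identity, 11 fell, 1 rose and 14 were not called. Hoxb9 fell from 48 and 52 to 11 and 12, and Hoxc5 was the member that rose, from 18 and 16 to 41 and 43.

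Markers of other cell types moved as well, and their part in the results was not tested. The summed value of 19 macrophage markers fell from 256 and 258 to 118 and 124, with Ptprc and Aif1 at 0 throughout. Lyz2, lysozyme, went from 134 and 132 to 46 and 38. Of 17 tested macrophage markers 11 fell and 3 rose. Neural markers summed to 115 and 116 before and 701 and 715 on day 1, most of it from Stmn2, a regulator of microtubules, which rose from 49 and 52 to 401 and 369, and Nefl. Of 10 endothelial markers, 6 were at 0 in all 4 libraries, among them Pecam1 and Cdh5, while the receptor gene Tek went from 0 and 0 to 16 and 16.

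**Figure D2:**
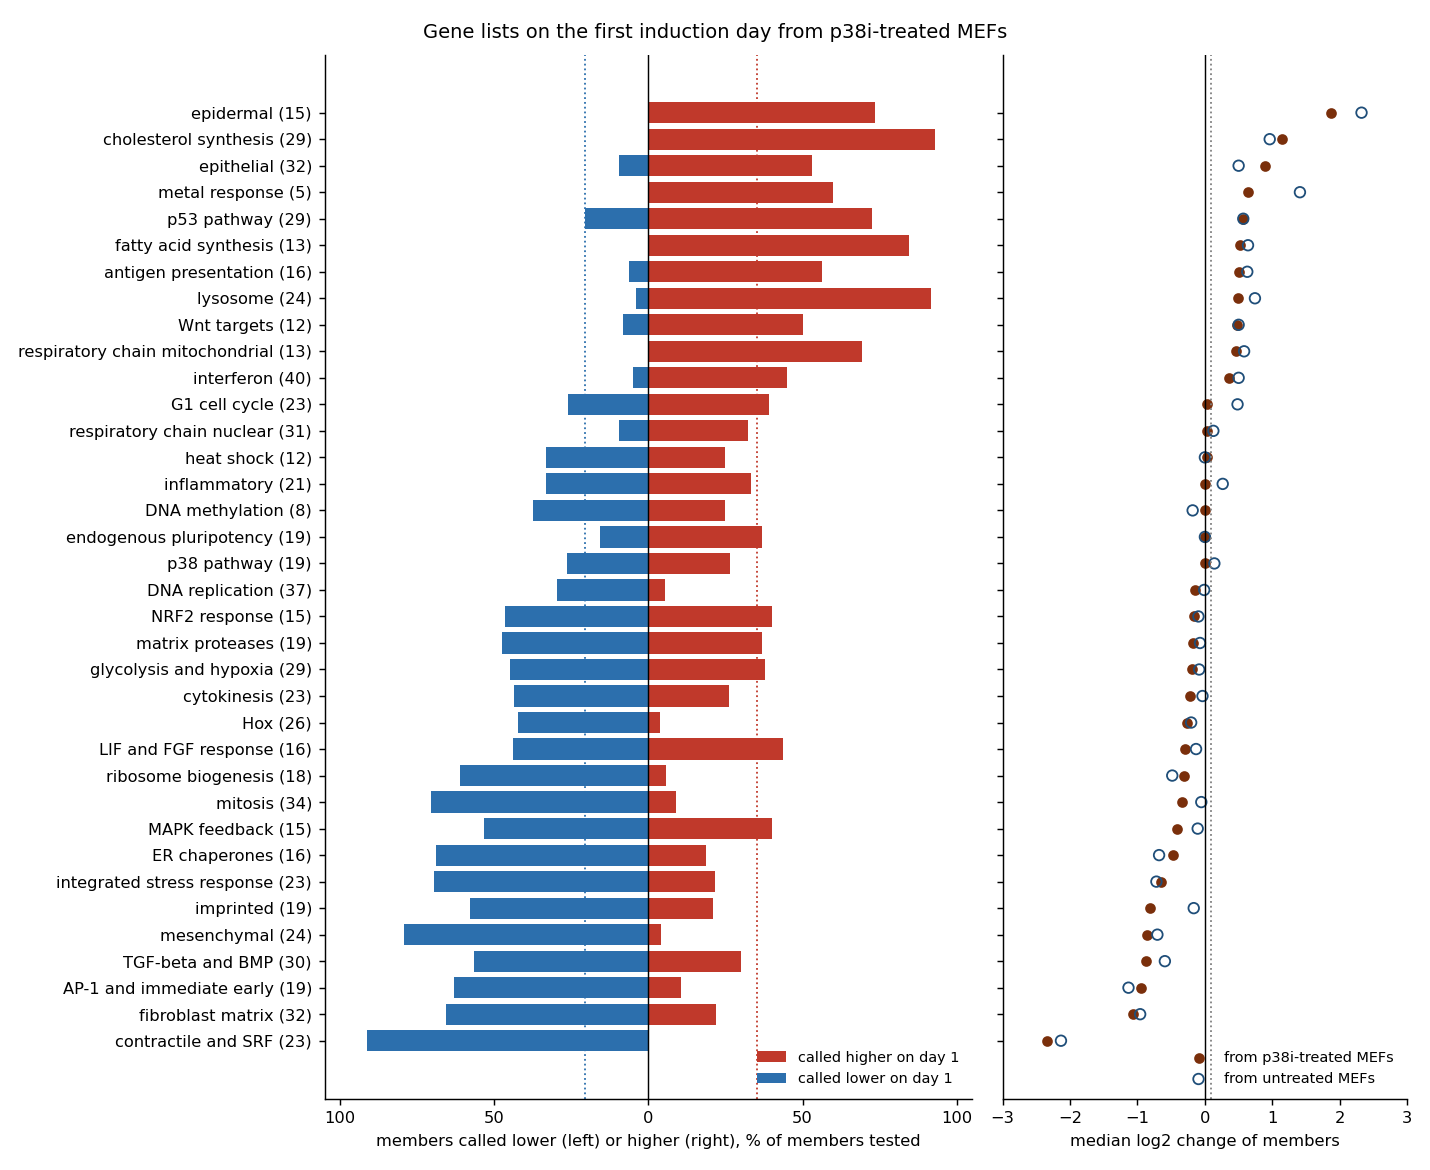
Left, share of the tested members of each gene list that limma called higher (right of 0) or lower (left of 0) on the first induction day from p38i-treated MEFs, in percent, with the number tested in brackets and dotted lines at the 35.3% and 20.7% of all 13230 genes. Right, median log2 change of the members from p38i-treated MEFs (filled) and untreated MEFs (open), with a dotted line at 0.09, the median of all genes from p38i-treated MEFs; sterol genes lie near the top and contractile genes at the bottom from both starting cultures, and list members that start at 0 could not be seen to fall.

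The first day from untreated MEFs had much the same content. limma called 7340 genes there (55.5%), and this comparison shares no library with the one above. Of the genes higher from p38i-treated MEFs, 3901 were also higher from untreated MEFs, which is 83.5% of the former and 80.6% of the latter. Of the lower genes, 1926 were shared, 70.4% and 77% of the respective lists. Of the genes higher from p38i-treated MEFs 21 were lower from untreated MEFs, and of the lower genes 34 were higher. Across the 13230 genes the changes had a Pearson correlation of 0.895 and a Spearman correlation of 0.833, with all libraries from a single table and genes that are not independent. The root mean square log2 change was 1.071 from p38i-treated MEFs and 1.025 from untreated MEFs.

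The difference between both first days was tested directly, as an interaction. limma called 1052 genes (7.95%), of which 475 had a more positive change after pretreatment (3.59%) and 577 a more negative one (4.36%). The counts of differing list members below stand against these shares. At least 2-fold differences were found in 261 genes. The count was 695 without the first control library of day 1, and 686 when only the groups compared entered the fit. Such a difference can arise from the level before induction as well as from the level on day 1.

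**Figure D3:**
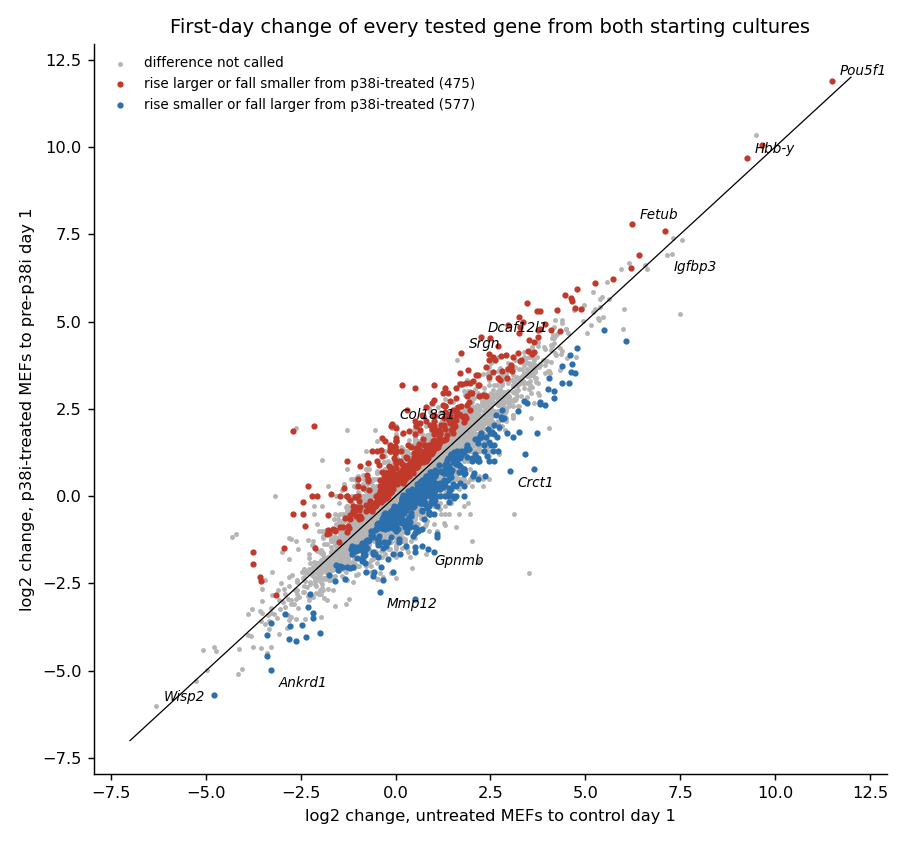
Log2 change of each of the 13230 genes on the first day, from untreated MEFs (horizontal) and from p38i-treated MEFs (vertical), with the line of equal change. The genes with a called difference, 475 more positive in red and 577 more negative in blue, flank the line, and Pou5f1, Hbb-y, Wisp2 and Ankrd1 lie near its ends.

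Of the 5 most positive differences, 4 are described here, those of Srgn, Dcaf12l1, Pkp1 and Col18a1. Srgn (chromosome 10, 62493833 to 62527451), the proteoglycan of secretory granules, was listed at 0 and 0 in p38i-treated MEFs and at 16 and 16 on day 1, against 3 and 1 in untreated MEFs and 10 and 7 on day 1 of the control (difference 2.36 on the log2(value + 1) scale, standard error 0.28, limma adjusted p = 1.35e-05). In a fit without the remaining groups, the call of Srgn was lost (adjusted p = 0.07211). Col18a1, the basement membrane collagen that yields endostatin, stood at 13 and 12 before and 53 and 58 on day 1 after pretreatment, and at 62 and 66 before and 66 and 55 on day 1 in the control (difference 2.15, standard error 0.11, adjusted p = 2.03e-10). Dcaf12l1 went from 0 and 0 to 21 and 24 after pretreatment and from 3 and 3 to 17 and 19 in the control. Pkp1, a desmosome gene, went from 0 and 0 to 8 and 8 after pretreatment and from 6 and 5 to 13 and 11 in the control. Col18a1 and Pkp1 thus had lower values in the p38i-treated MEFs and came up to or towards the control on day 1.

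The 5 most negative differences were in Gpnmb, Mmp12, Crct1, 1700007K13Rik and Fabp4. Gpnmb (chromosome 6, 49036546 to 49070929), a lysosomal glycoprotein of macrophages and other phagocytic cells, fell from 120 and 115 to 42 and 39 after pretreatment and rose from 35 and 36 to 66 and 63 in the control (difference -2.36, standard error 0.12, limma adjusted p = 2.03e-10). Mmp12, the macrophage elastase, fell from 14 and 11 to 1 and 1 after pretreatment and stood at 5 and 5 and then 3 and 4 in the control. Fabp4, a lipid carrier of fat cells and macrophages, went from 7 and 7 to 2 and 2, against 3 and 5 and then 6 and 8, a call lost with a pseudocount of 0.1 (adjusted p = 0.1227). Crct1, a cornified envelope gene, reached 57 and 47 on day 1 of the control and only 10 and 11 after pretreatment. 1700007K13Rik went from 3 and 2 to 7 and 7 after pretreatment and from 2 and 0 to 15 and 20 in the control, and its call was lost in a fit without the remaining groups (adjusted p = 0.1934).

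**Figure D4:**
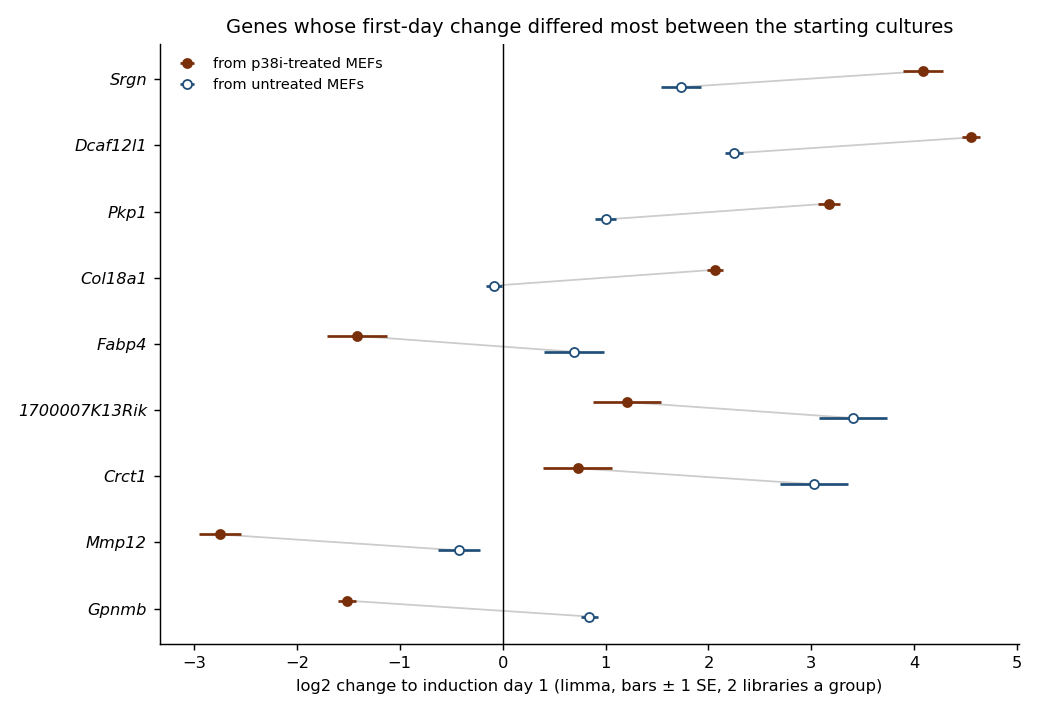
Log2 change to induction day 1 of 9 of the 10 genes with the largest called differences, from p38i-treated MEFs (filled) and from untreated MEFs (open), with bars of 1 standard error from limma and 2 libraries in each group. Srgn, Dcaf12l1, Pkp1 and Col18a1 lie further right from p38i-treated MEFs, and Gpnmb, Mmp12, Crct1, 1700007K13Rik and Fabp4 further left.

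Among macrophage markers, 3 of 17 had a called difference, all negative. Lyz2 went from 154 and 152 to 171 and 161 in the control, where it was not called, against its fall after pretreatment (difference -1.76, standard error 0.15, limma adjusted p = 1.84e-07), and Ctss and Mpeg1 were the others (differences -1.64 and -0.99). Ctss fell from 19 and 19 to 5 and 3 after pretreatment and from 17 and 19 to 13 and 14 in the control, and Mpeg1 from 11 and 9 to 2 and 2 and from 10 and 10 to 5 and 5. The complement gene C1qc fell from both starting cultures and differed by -0.29 (adjusted p = 0.74). The sum of the macrophage markers was 362 and 379 in untreated MEFs and 314 and 327 on day 1 of the control. After pretreatment the sum fell, as did Gpnmb, Mmp12 and Fabp4. In the control the sum fell too, whereas Gpnmb rose from 35 and 36 to 66 and 63. The sum started lower in p38i-treated MEFs than in untreated MEFs, and Gpnmb started higher. The part of macrophages in these differences was not tested.

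Contractile genes fell further after pretreatment in 6 of 23 cases and less far in 2. Acta2 fell from 6180 and 5867 to 841 and 901 in the control (difference -0.93, standard error 0.15, limma adjusted p = 0.000566). Ankrd1, which fell from 206 and 217 to 21 and 21 in the control, differed by -1.71. Cnn1, from 205 and 200 to 37 and 28 in the control, differed by -1.54 and Myl9, from 847 and 787 to 148 and 144, by -1.20. With a pseudocount of 0.1 neither was called (limma adjusted p = 0.3727 for Cnn1 and 0.07801 for Myl9). Cnn1 was also not called with the replicate block within time point (adjusted p = 0.05283). Myl9 was not called without the filter on low values or under quantile normalization (adjusted p = 0.07366 and 0.08467). The call of Myl9 was lost without any single library of the 8 (adjusted p up to 0.112), and that of Cnn1 without either library of untreated MEFs, the second of p38i-treated MEFs, the first control library of day 1 or the second pre-p38i library of day 1 (adjusted p up to 0.1081). The matrix genes split again, with 5 of 11 collagen genes more positive and none more negative, and 5 of 17 other matrix proteins more negative and 1 more positive. Col3a1, the fibrillar collagen of loose tissue, rose from 124 and 115 to 331 and 327 after pretreatment and from 247 and 284 to 341 and 320 in the control (difference 1.14), ending at similar values.

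Lysosomal genes had a more negative change after pretreatment in 12 of 24 cases and a more positive one in none. The differences were small, between -0.19 and -0.57 on the log2 scale, from Ctsb to Neu1, which reached 65 and 63 in the control. Metallothionein genes, which bind zinc and copper, showed the same direction with larger sizes: Mt1 went from 520 and 525 to 579 and 555 after pretreatment and from 219 and 258 to 614 and 652 in the control (difference -1.29, standard error 0.09, limma adjusted p = 9.001e-09), and Mt2, from 229 and 209 to 332 and 357 and from 101 and 109 to 387 and 358, differed by -1.17. Mt1 was not called from p38i-treated MEFs (adjusted p = 0.1128), and both genes started higher there than in untreated MEFs. The light chain of ferritin, Ftl1, also started higher, at 14105 and 14093 against 11881 and 11386, and fell to 7724 and 7992 against 10340 and 10179 (difference -0.66, adjusted p = 1.84e-07), with near-identical pseudogenes in the table.

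Stress response, chemokine and proliferation genes differed too. Of 23 integrated stress response genes, 9 were more positive and 2 more negative after pretreatment, with a median difference of 0.35. Nupr1, which went from 119 and 141 to 258 and 266 in the control, differed by 0.84. Ccl7 started lower, at 20 and 18 against 65 and 61, and reached 185 and 183 against 205 and 210 (difference 1.51, standard error 0.10, limma adjusted p = 8.51e-09). Csf1 fell further after pretreatment than in the control, where it went from 255 and 241 to 57 and 51 (difference -1.16, adjusted p = 3.2e-07). Of the 34 mitotic genes, 4 were more negative and none more positive with a median difference of -0.25, and Ccna2 went from 96 and 102 to 77 and 78 in the control, from a lower start to the same day 1 value as after pretreatment. Map2k6, an activator of p38, stood at 22 and 19 in p38i-treated MEFs and 9 and 10 on day 1, against 5 and 6 and then 7 and 7 (difference -1.34, adjusted p = 0.000118).

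Some of the earliest risers came up further after pretreatment. Pou5f1 was 2996 and 2822 on day 1 of the control, lower than both pretreated libraries (difference 0.39, standard error 0.06, limma adjusted p = 0.000609), although quantile normalization ended this call (adjusted p = 0.0907). Sox2 differed by 0.83 (adjusted p = 0.051, and 2.617e-06 without the second library of untreated MEFs, since it was listed at 1 in the first) and Klf4 by 0.11 (adjusted p = 0.659). Aldh3a1 (836 and 775 in the control), Avil (138 and 132) and Fetub (150 and 148) also had called differences, of 0.41, 0.51 and 1.56. Fetub was listed at 1 and 1 in untreated MEFs but at 0 and 0 in p38i-treated MEFs. Much of its difference therefore comes from starting values near 0, which are measured coarsely. Hbb-y, at 604 and 632 in the control, differed by 0.40 (adjusted p = 0.0366), and without any single library of the 8 this call was lost (adjusted p up to 0.121). Itgb4, Crym, Nefl and Igfbp3 had no called difference, but without the second library of p38i-treated MEFs Nefl and Igfbp3 were called (differences -0.87 and -0.38), and without the first pre-p38i library of day 1 Crym was (-0.29).

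The genes of the first day followed different courses later in the pretreated cells. Hbb-y, Aldh3a1 and Avil had their highest mean on day 3, at 1546.5 ± 241, 3438.5 ± 206 and 874 ± 19.8 (SD, n = 2), and Hbb-y was back to 429 ± 12.7 on day 7. Dcn, Stmn2 and Dusp14 had their highest mean on day 1, and Dcn stood at 46.5 ± 6.36 on day 7. Cdh1 and Krt8 went on rising, to 265.5 ± 3.54 and 166.5 ± 10.6 on day 7, and Mt2 to 2496 ± 9.9. Nanog first appeared on day 5, at 3 in both libraries, and was 28 in both on day 7. Acta2, Cxcl12 and Snai1 stayed below their day 1 values on day 7, with means of 18, 1.5 and 3.5. Nanog and Cdh1, at 0 or low on day 1, thus had their highest values on day 7.

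**Figure D5:**
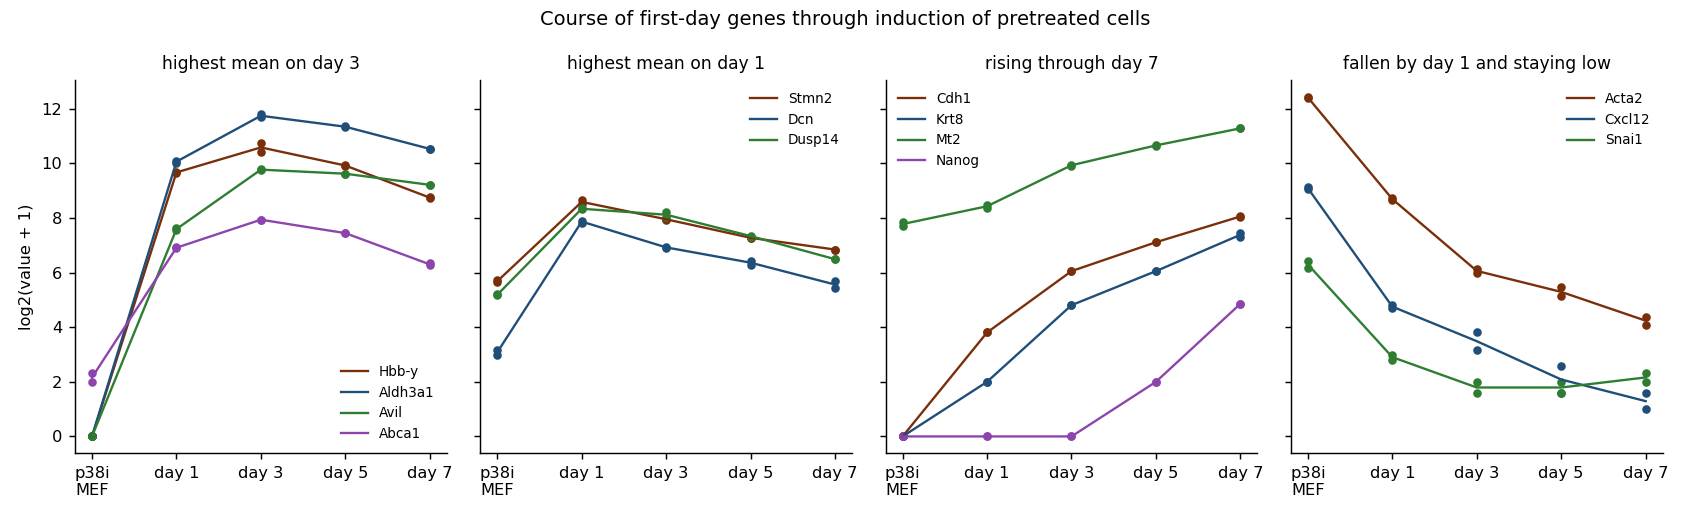
Log2(value + 1) of 14 genes in p38i-treated MEFs and on days 1, 3, 5 and 7 of induction after pretreatment; points are libraries and lines join means of 2. The panels group genes with their highest mean on day 3, those highest on day 1, those rising through day 7, and those that fell by day 1 and stayed low.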

How the data were processed

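RNA-seq libraries of mouse cells were used as the authors deposited them, in 1 table of 50600 genes by 28 libraries. The submitters' processing notes name bcl2fastq, Bowtie2 2.2.5 and RSEM 1.3.0 and the builds mm10 and hg38. Strand use, annotation and sequencing depth are not given in the sources used here. The deposited values are whole numbers that behave as TPM cut to whole numbers, and are treated as a score with no counts, so no count test was run. 27 gene names had been turned into dates, and 99.6% of identifiers were found in GENCODE M21, from which positions were taken.

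Groups came from the sample labels. The 13230 genes averaging 1 or more across all 28 libraries were tested as log2(value + 1) with lmFit and eBayes (trend) of limma 3.58.1 in R 4.3.3, with all 14 groups in 1 model (14 residual degrees of freedom). The contrasts were day 1 of pre-p38i minus p38i-treated MEFs, day 1 of the control minus untreated MEFs, and the difference of these. P-values were adjusted over all tested genes by Benjamini-Hochberg, with a threshold of 0.05. Changes are on the log2(value + 1) scale, which understates those of low genes, and no fold is given against values at 0. With 2 libraries against 2, an exact permutation test could not go below 0.333.

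The named genes were the called genes with the 10 largest increases and the 10 largest decreases, averaging 5 or more in the 4 libraries and without overlap, the 5 most positive and 5 most negative differences averaging 5 or more in the 8 libraries and without overlap of the changes over pairs of libraries, up to 4 called members of each gene list by size, averaging 5 or more (any member in lists of up to 12 tested), and Nanog, Pou5f1, Sox2, Klf4, Dppa3, Cdh1, Krt8, Cldn3, Twist1, Zeb1, Trp53 and the p38 isoforms. A few genes that this rule names are not reported here. Other genes, and the promoters shown, were chosen after their values were seen. The members, gene lists and comparisons were chosen with earlier results of these data known.

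Replicate numbers did not pair the libraries: deviations of same-numbered libraries correlated between -0.0838 and 0.0874. Near-identical copies of the named genes (at least 95% identity over 200 bases) were searched with BLAST 2.17.0+. Alternatives were another pseudocount, other filters, quantile normalization, a replicate block, a fit without the remaining groups, a 2-fold minimum and leaving out each library. The script was tested on simulated data. Figures were drawn with matplotlib 3.10.9.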

Additional observations from a re-analysis of the deposited data

Results flagged for a closer look

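The first induction day differed between p38i-treated and untreated MEFs in 1052 of 13230 genes by limma's test of the difference itself, at an adjusted p-value under 0.05. Of the 46 genes named in the text with such a difference, 28 changed more negatively after pretreatment. By the log2 difference they were Gpnmb (-2.36), Mmp12 (-2.32), Crct1 (-2.30), 1700007K13Rik (-2.20), Fabp4 (-2.11), Ogn (-1.95), Lyz2 (-1.76), Ankrd1 (-1.71), Aspn (-1.69), Ctss (-1.64), Cnn1 (-1.54), Map2k6 (-1.34), Mt1 (-1.29), Prrx2 (-1.28), Myl9 (-1.20), Ier5l (-1.19), Mt2 (-1.17), Csf1 (-1.16), Mpeg1 (-0.99), Acta2 (-0.93), Abca1 (-0.74), Hoxb9 (-0.74), Ccnd1 (-0.67), Ftl1 (-0.66), Neu1 (-0.57), Prc1 (-0.48), Ccna2 (-0.36) and Ctsb (-0.19). The other 18 changed more positively, namely Pou5f1 (0.39), Cd9 (0.39), Hbb-y (0.40), Aldh3a1 (0.41), Cdkn1a (0.42), Serpine2 (0.48), Avil (0.51), Nupr1 (0.84), Col3a1 (1.14), Spint2 (1.43), Mmp10 (1.44), Ccl7 (1.51), Fetub (1.56), Mmp3 (1.57), Col18a1 (2.15), Pkp1 (2.17), Dcaf12l1 (2.31) and Srgn (2.36). The calls of Aspn, Prrx2 and Ier5l were each lost on leaving out single libraries. For Aspn these were the first of any of the 4 groups or the second pre-p38i library of day 1 (adjusted p up to 0.1312). For Prrx2 they were either library of either MEF group or the first of either day 1 group (up to 0.1028), and for Ier5l any of the 8 but the first of p38i-treated MEFs (up to 0.08124, limma). In a fit without the remaining groups, the calls of Spint2, Mmp10, Mmp3, Abca1, Serpine2, Nupr1, Aspn and Prrx2 were lost (limma adjusted p from 0.05065 to 0.1781). Those of Srgn and 1700007K13Rik were lost there too. With a pseudocount of 0.1, the calls of Cnn1, Fabp4, Ier5l, Myl9 and Prrx2 were lost (limma adjusted p from 0.05688 to 0.3727). Each group had 2 libraries, and no group was large enough to look for single outlying libraries.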

How the results depend on the processing

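The count of called genes from p38i-treated MEFs stayed between 5926 and 7714 under another pseudocount, other filters, quantile normalization, replicate blocks and a fit without the remaining groups, and from untreated MEFs between 5578 and 7683. Requiring a 2-fold change left 2832 and 2677 genes, and 261 for the difference between both, by construction. Leaving out each library gave 6388 to 6609 genes from p38i-treated MEFs, 6444 to 6586 from untreated MEFs and 695 to 873 for the difference, against 1052. Without the first control library of day 1 it was 695 and in a fit without the remaining groups 686, of which 457 were among the 1052, and fewer samples entered both fits. With the replicate block the counts were 7409, 7336 and 1042, and with the block within time point 6477, 6473 and 861. The replicate numbers do not pair the libraries. Quantile normalization gave 3411 higher and 3835 lower genes from p38i-treated MEFs (47.1% higher, against 63.1%) and 3392 and 3751 from untreated MEFs (47.5%, against 65.9%). For the 123 named genes, 1327 of 1344 values of the change and 1754 of 1836 of the difference kept their side of the threshold. Only 46 of the 123 had a called difference in the main fit, and only these could lose a call. The share for the difference is therefore not that of the called differences alone. No value called in the main fit or the alternative changed direction, and the direction of values called in neither was not compared. With 2 libraries a group and values cut to whole numbers, genes near 1 are measured coarsely, and their depth is unknown.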
